A study of Mus musculus with 18 samples.

Results

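The effect of a K146Q knock-in allele of Thrb on mRNA levels was compared between the pituitary and the thyroid of the same mice, gene by gene, as a difference of differences: K146Q minus WT in pituitary, minus K146Q minus WT in thyroid. Genes entered by their symbol, which had to occur once in each gland's table, and by a floor of 0.5 normalized CPM, the reads of a gene scaled to a common library size, which 3 or more of the 6 libraries had to reach in each gland. These conditions left 14333 of 24054 genes. Of the rest, 1233 reached that level in pituitary only, 844 in thyroid only, and 27 were lost because a spreadsheet had turned their symbol into a date in the pituitary table. Bulk RNA-Seq had been done on 18 libraries of hypothalamus, pituitary and thyroid, and the comparison uses the 12 libraries of the last 2 tissues.

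The WT group was WT mice 1, 2 and 43 of the strain labelled C57BL/Ntac (C57BL/NTC in the study's methods), and the K146Q group was mice 60, 62 and 83 of the same strain label. All were untreated males aged 3 months, and each gave 1 pituitary and 1 thyroid library. The knock-in replaces a lysine of THRB1 to which the small protein SUMO is attached by glutamine in every cell of the body, and its selection cassette had been removed. It is thus no model of a change in either gland alone: effects that arise within a gland and effects of circulating hormones cannot be told apart.

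Thyroid hormone production is governed by a loop. Thyrotropin-releasing hormone from the hypothalamus acts on its receptor on pituitary thyrotrophs, which secrete thyrotropin, a dimer of the Tshb and Cga subunits. Thyrotropin acts on follicular cells of the thyroid, which make thyroxine from thyroglobulin, and deiodinases convert thyroxine into the active hormone T3. T3 bound to THRB, the main thyroid hormone receptor of the pituitary, represses the thyrotropin subunit genes, whereas it activates other target genes.

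Library totals of the 12 libraries lay between 16468854 and 21230050 reads, so that 3 reads, the lowest count treated as a detectable level, corresponded to 0.133 to 0.190 CPM. Pituitary libraries carried their defining mRNAs, with Gh at 62503 CPM or more, and thyroid libraries carried thyroglobulin (Tg) at 83869 CPM or more. The WT thyroid library of mouse 1 stood apart: its pituitary hormone mRNAs were the highest of the 6 thyroid libraries, with Gh at 365 CPM against 72.1 to 125 in the others, Tshb at 35.9 against 1.88 to 5.69 and Cga at 95.9 against 7.83 to 16.1. These levels were at most 0.463% of the highest pituitary level of the same gene. Thyroid libraries also differed by genotype in markers of C cells, which lie within the thyroid, and of adjoining parathyroid and fat. The parathyroid hormone mRNA Pth was at 490 to 1489 CPM in K146Q and 3240 to 6012 in WT, the C-cell mRNA Calca at 163 to 310 and 2069 to 2591, and the brown fat mRNA Ucp1 at 0.293 to 8.58 and 29.2 to 171. In pituitary Pth stayed at 1.23 to 1.88 CPM, Calca at 0.801 to 3.20 and Ucp1 at 0 to 0.114. Of the marker lists, the C-cell list summed to 1372 to 3532 CPM in K146Q thyroid and 8980 to 15003 in WT thyroid, the parathyroid list to 1670 to 4747 and 10195 to 19238, and the fat list to 206 to 415 and 938 to 1239. Chga is a member of both the C-cell and the parathyroid list, so their sums are not separate. The lists of skeletal muscle (823 to 4005 and 371 to 6972) and lymphocytes (9.26 to 12.1 and 2.89 to 33.0) overlapped between genotypes. Without the WT thyroid library of mouse 1, all 5 measured muscle genes were called lower in K146Q thyroid, and 0 with it.

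**Figure D1:**
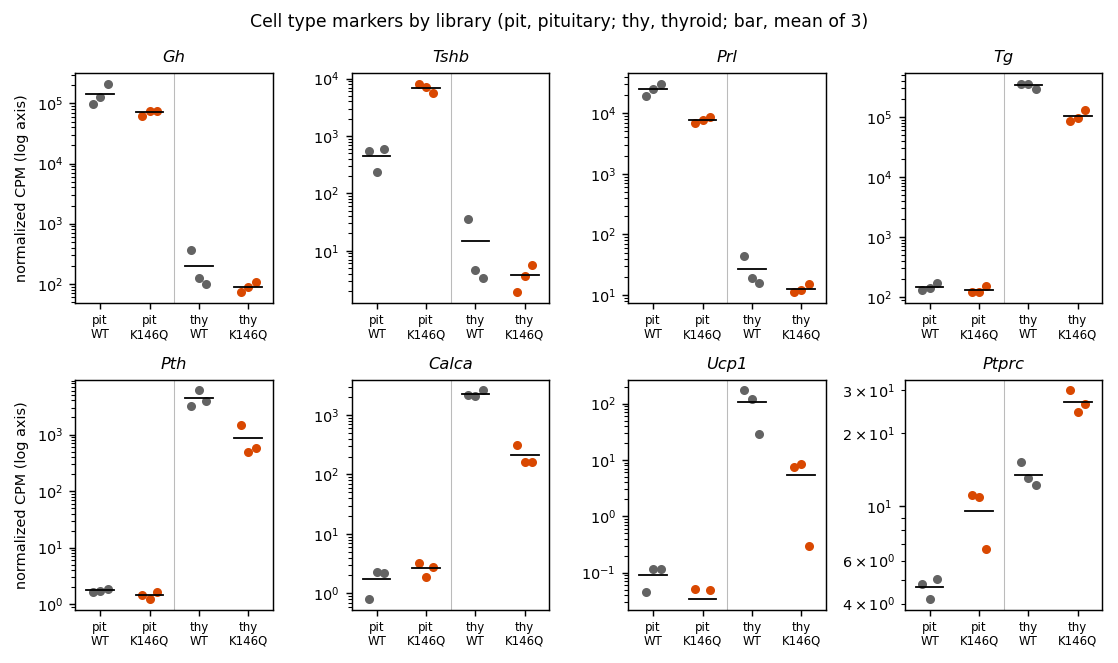
Normalized CPM of 8 cell type markers on log axes, 1 point per library and a bar at the mean of 3 libraries of a group. Gh, Tshb and Prl are higher in all pituitary than in all thyroid libraries, Tg is higher in all thyroid than in all pituitary libraries, Pth, Calca and Ucp1 are lower in the K146Q thyroid libraries than in the WT thyroid libraries, and Ptprc is higher in K146Q in both glands. A value of 0, as for Ucp1 in the pituitary library of K146Q mouse 62, cannot be drawn on a log axis.

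Thrb itself (chr14:17660261-18038090, plus strand, GRCm38) moved in opposite directions in the 2 glands. A substitution of 1 residue leaves no trace in a count per gene, so these values do not check the genotype. In pituitary Thrb was at 159, 142 and 184 CPM in K146Q mice 60, 62 and 83, and at 104, 97.7 and 106 in WT mice 1, 2 and 43. In thyroid it was at 7.19, 5.64 and 4.98 CPM in K146Q and at 14.9, 16.3 and 15.6 in WT. All K146Q pituitaries lay above all WT pituitaries, and all K146Q thyroids below all WT thyroids. The fitted change was 0.65 ± 0.13 on the log2 scale (SE, n = 3 against 3, limma adjusted p = 0.0137) in pituitary and -1.33 ± 0.13 (adjusted p = 1.67e-05) in thyroid, a difference of 1.98 ± 0.18 (limma adjusted p = 3.22e-05). The pituitary call was lost without WT mouse 1 (limma adjusted p = 0.0556) or WT mouse 2 (0.0635). Thra, which encodes the other thyroid hormone receptor, was not called in pituitary (0.10 ± 0.15) and changed by -0.46 ± 0.15 in thyroid (limma adjusted p = 0.03).

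Dio2, the deiodinase that makes T3 within pituitary cells, had the same pair of directions. It was at 944, 877 and 704 CPM in K146Q pituitary against 156, 87.6 and 103 in WT, and at 17, 15.2 and 19.8 CPM in K146Q thyroid against 31.5, 23.7 and 25.9 in WT. The genotypes did not overlap in either gland. The thyroid change of -0.63 ± 0.20 (limma adjusted p = 0.0274) lost its call without mouse 43, 60 or 62 (limma adjusted p = 0.0604, 0.0774 and 0.121) and without the WT thyroid library of mouse 1 alone (0.0918), while the pituitary change of 2.90 ± 0.20 and the difference were called in each of these. Since Thrb is the altered gene and Dio2 is known to be induced by cAMP and lowered by thyroid hormone, the 250 bases before their RefSeq starts are shown, with motifs in capitals where present on either strand. Those searched were the cAMP response element TGACGTCA, its core TGACG, which lies within it, the thyroid hormone response half-site AGGTCA, and the direct repeat of that half-site with 4 bases between. Both are given 5′ to 3′ in the direction of the gene from RefSeq for GRCm38, Dio2 at chr12:90739039-90739288 on the minus strand and Thrb at chr14:17660710-17660959 on the plus strand.
Dio2: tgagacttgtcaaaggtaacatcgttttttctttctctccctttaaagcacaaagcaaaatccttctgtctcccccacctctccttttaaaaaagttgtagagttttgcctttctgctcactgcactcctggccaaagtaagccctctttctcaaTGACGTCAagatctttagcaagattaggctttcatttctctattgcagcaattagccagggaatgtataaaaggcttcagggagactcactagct
Thrb: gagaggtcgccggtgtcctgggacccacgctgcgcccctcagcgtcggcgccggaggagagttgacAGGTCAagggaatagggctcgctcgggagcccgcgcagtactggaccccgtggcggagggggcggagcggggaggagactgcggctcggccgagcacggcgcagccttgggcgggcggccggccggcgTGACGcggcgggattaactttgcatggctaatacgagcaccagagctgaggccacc

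The Dio2 window held 1 full cAMP response element, and the Thrb window held 1 half-site and 1 core. A second RefSeq start of Thrb, and the windows of Casr and Tshb, held none of these. Among all 10743 tested genes with such a window, TGACGTCA was in 3.01%, TGACG in 29.4% AGGTCA in 13.1% and the direct repeat in 0. Among genes higher in K146Q pituitary and lower in K146Q thyroid the shares were 4.44%, 30% and 16.7% of 90 windows, and among genes of the reverse orientation 5.66%, 18.9% and 13.2% of 53. Among genes higher in both glands they were 1.17%, 19.3% and 15.2% of 171, and among genes lower in both 0%, 21% and 16.1% of 62. A match is a run of letters and not a measured binding site, and the shares carry no test.

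A gene was called at an adjusted p under 0.05 in limma on log2(CPM + 0.5). In pituitary 852 genes were called, 5.94% of those tested, 590 of them higher in K146Q (4.12%) and 262 lower (1.83%). In thyroid 6246 were called (43.6%), 3084 higher (21.5%) and 3162 lower (22.1%). The difference between the glands was called for 4036 genes (28.2%), with 2067 more positive in pituitary (14.4%) and 1969 more negative (13.7%). With library totals taken without the 10 highest genes of each gland, the split moved to 494 higher and 373 lower in pituitary, 2477 and 4204 in thyroid, and 2240 and 1718 for the difference. The median change over all genes was then -0.06 in pituitary and -0.12 in thyroid on the log2 scale, against -0.01 and -0.03. WT and K146Q did not overlap for 4428 genes (30.9%) in pituitary and for 7470 genes (52.1%) in thyroid. The SD of the log2 change across genes was 0.353 in pituitary and 0.718 in thyroid, while the median SD between libraries of a group was 0.135 and 0.160. Across genes the 2 changes had a Pearson r of 0.101, and of 0.134 among the 512 genes called in both glands. This is a description over genes that share the same 6 mice.

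The 512 genes called in both glands were 60.1% of the pituitary calls and 8.2% of the thyroid calls. Of them, 327 (2.28% of genes tested) moved together, 240 higher (1.67%) and 87 lower (0.607%), and 185 (1.29%) moved oppositely, 118 higher in pituitary and lower in thyroid (0.823%) and 67 the other way (0.467%). One gland alone was counted where that gland's change and the difference were called and the other gland's change was not. On this count 227 genes (1.58%) changed in pituitary alone, 160 higher (1.12%) and 67 lower (0.467%), and 3262 (22.8%) in thyroid alone, 1655 higher (11.5%) and 1607 lower (11.2%). For 2585 genes called in 1 gland the difference was not called, so they were assigned to neither, and 293 were called for the difference only. Without the 10 highest genes in the totals the splits were 183 higher and 135 lower for genes that moved together, 120 and 80 for opposite genes by their pituitary direction, 130 and 83 in pituitary alone and 1377 and 1850 in thyroid alone.

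The counts depended on single mice. Pituitary calls fell to 280 without mouse 60, 325 without mouse 62, 534 without mouse 1 and 564 without mouse 2, and genes that moved together to 87, 100, 187 and 201. Opposite genes fell to 74, 70, 118 and 121 in the same order. Without mouse 62 the difference was called for 2373 genes and thyroid alone for 2012, and pituitary alone held 97 genes without mouse 60 and 112 without mouse 62. Without the WT thyroid library of mouse 1 the difference was called for 3744 genes, with 299 together and 167 opposite. Of the 87 genes together without mouse 60, 82 were among the 327, and of the 70 opposite without mouse 62, 68 were among the 185.

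**Figure D2:**
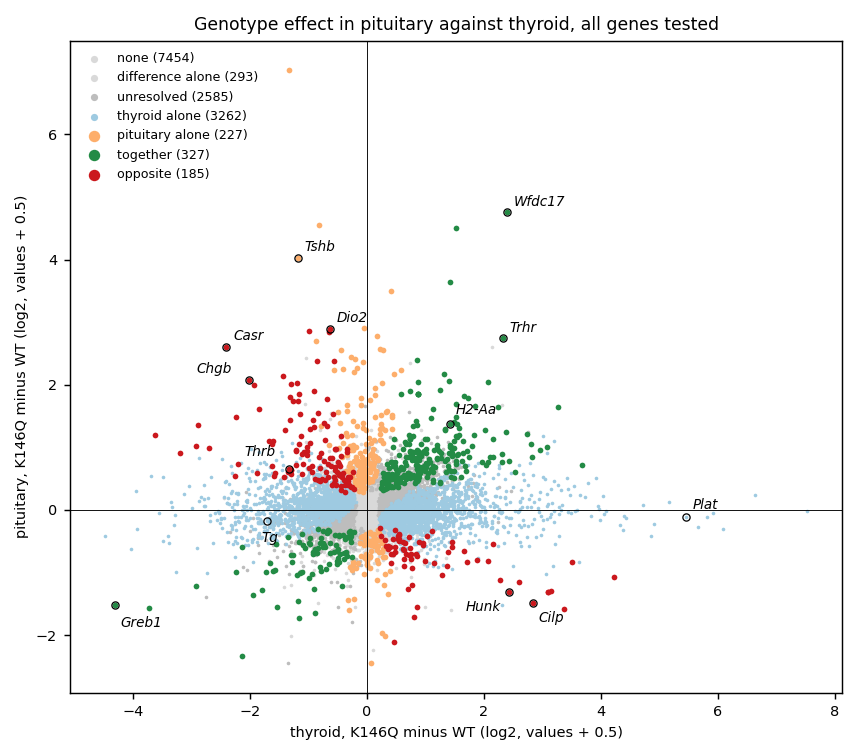
Change from WT to K146Q on the log2 scale in thyroid (x axis) and in pituitary (y axis), 1 point per gene for all 14333 genes, coloured by class with the number of genes in brackets. Opposite genes (185) fill the upper left and lower right, genes that moved together (327) the upper right and lower left, and the cloud is wider along the thyroid axis.

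Among genes higher in both glands, the 5 named by the size of their smaller change were Wfdc17, Trhr, Bdnf, Dkk3 and Serpina3n. Genes named by size, here and below, had to have separate genotypes in each gland where called, so that separation is no result. Wfdc17, a secreted protein of macrophages, was at 49.9, 28.1 and 23.1 CPM in K146Q pituitary against 0.534, 0.629 and 0.968 in WT, and at 13.9, 15.7 and 9.56 in K146Q thyroid against 3.22, 1.08 and 2.29. It rose by 4.76 ± 0.34 in pituitary and 2.39 ± 0.34 in thyroid, and the excess in pituitary of 2.37 ± 0.48 was called (limma adjusted p = 0.00436). Trhr, the receptor of thyrotropin-releasing hormone, was at 71.1, 59.9 and 53.2 CPM in K146Q pituitary against 13.6, 5.72 and 8.20 in WT. In thyroid it was at 3.17, 2.53 and 3.40 CPM against 0.316, 0.253 and 0.0601. The groups did not overlap in either gland, and the changes of 2.75 ± 0.26 and 2.33 ± 0.26 differed by 0.42 with a 95% interval from -0.38 to 1.23. WT thyroid held 1 to 5 reads of Trhr per library, and the difference was -0.63 with an offset of 0.1, -1.10 in edgeR and -1.13 in DESeq2, none of them called, but was called with an offset of 1 (0.94, limma adjusted p = 0.0474). The neurotrophin Bdnf rose by 1.79 ± 0.28 and 1.74 ± 0.28, from 10.9 to 19.6 CPM in WT pituitary to 40.1 to 65.5 in K146Q, and from 0.180 to 0.442 in WT thyroid to 1.39 to 2.76. In thyroid, Trhr and Bdnf reached the floor of 0.5 CPM in K146Q libraries only. Their entry thus required the higher K146Q level, so their place among these genes is partly set by the filter. The secreted Dickkopf family protein Dkk3 rose by 1.66 ± 0.18 and 1.85 ± 0.18, and the protease inhibitor Serpina3n by 1.81 ± 0.35 and 1.65 ± 0.35. The intervals of their differences were -0.83 to 0.93 for Bdnf, -0.75 to 0.36 for Dkk3 and -0.94 to 1.26 for Serpina3n, whose pituitary call was lost without mouse 1 or 43 (limma adjusted p = 0.0531 and 0.0506).

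Among genes lower in both glands, Ceacam10, a cell surface protein of the carcinoembryonic antigen family, was at 4.90, 2.45 and 3.11 CPM in K146Q pituitary against 14.5, 18.0 and 26.4 in WT, and at 1.34, 1.53 and 2.29 in K146Q thyroid against 8.34, 7.91 and 11.2. It fell by -2.34 ± 0.26 and -2.13 ± 0.26 with no overlap of genotypes. Col4a3, a chain of basement membrane collagen, fell by -1.55 ± 0.18 in pituitary and -1.53 ± 0.18 in thyroid, and the 95% interval of the difference was -0.58 to 0.55. Prima1, which anchors acetylcholinesterase in the membrane, fell by -1.36 ± 0.25 and -1.94 ± 0.25, the former not called without mouse 60 (limma adjusted p = 0.0718). In thyroid Prima1 reached the floor of 0.5 CPM in WT libraries only, so its place here is partly set by the filter. For the other 2 the fall was larger in thyroid. Greb1, a gene known for its response to estrogen, was at 15.7, 28.4 and 34.7 CPM in K146Q pituitary against 79.4, 86.5 and 56.1, and at 1.49, 0.940 and 0.645 in K146Q thyroid against 24.8, 41.0 and 23.6. Its thyroid change of -4.30 ± 0.32 exceeded the pituitary change of -1.53 ± 0.32 by 2.78 ± 0.45 (limma adjusted p = 0.00116), and the pituitary call was lost without mouse 1, 2, 60 or 62 (0.0541 to 0.0737). Pnoc, the precursor of the neuropeptide nociceptin, changed by -1.56 ± 0.25 and -3.72 ± 0.25, a difference of 2.16 ± 0.36 (limma adjusted p = 0.00137). Of the 327 genes that moved together, 69 had a called difference, 54 with the larger change in thyroid and 15 with the larger change in pituitary, and for 66 the 95% interval of the difference lay within ±0.5.

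The gene with the largest smaller change of the opposite genes was Casr, the calcium-sensing receptor, which is known for setting hormone release from parathyroid cells. It was at 103, 64.5 and 46.4 CPM in K146Q pituitary against 11.6, 11.3 and 9.23 in WT. In thyroid it was at 67.6, 28.3 and 37.6 CPM in K146Q against 183, 326 and 182 in WT. It rose by 2.61 ± 0.35 in pituitary and fell by -2.40 ± 0.35 in thyroid, a difference of 5.0 ± 0.50 (limma adjusted p = 5.94e-05), and neither gland's genotypes overlapped. The parathyroid markers Pth and Chga were lower in the same K146Q thyroid libraries (Pth as given above), and their part in the thyroid value of Casr was not tested. In pituitary Pth was at most 1.88 CPM.

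Chgb, which encodes a granin of secretory granules, was at 22951, 19653 and 17148 CPM in K146Q pituitary against 4915, 4180 and 5101, and at 12.3, 12.5 and 18.7 in K146Q thyroid against 136, 46.0 and 32.9. The highest thyroid value was that of WT mouse 1, and all thyroid values were at most 0.594% of the highest pituitary value. Its changes were 2.07 ± 0.40 and -2.02 ± 0.40, and the pituitary call was lost without mouse 2, 60 or 62 (limma adjusted p = 0.0578 to 0.0902). The SE is that of a spread shared with thyroid, where WT mouse 1 stood apart. With each gland fitted alone the pituitary change of Chgb was called (limma adjusted p = 0.00115). Cited1, a transcriptional coactivator, was at 22.7, 13.3 and 14 CPM in K146Q pituitary against 2.85, 3.72 and 4.67, and at 0.843, 0.529 and 0.879 in K146Q thyroid against 3.79, 4.62 and 4.27, with no overlap in either gland. It changed by 1.99 ± 0.21 and -1.93 ± 0.21. The class III myosin Myo3b changed by 1.61 ± 0.30 and -1.84 ± 0.30, its pituitary call lost without mouse 60 (0.0688), and Cacng5, a membrane protein that accompanies AMPA receptors, by 1.49 ± 0.27 and -2.23 ± 0.27.

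In the other orientation, Hunk, a protein kinase of the AMPK-related group, was at 10.9, 11.2 and 12.8 CPM in K146Q pituitary against 32.8, 34.5 and 23.1, and at 53.6, 53.8 and 63.9 in K146Q thyroid against 12.9, 9.74 and 8.24. It fell by -1.32 ± 0.18 in pituitary and rose by 2.43 ± 0.18 in thyroid, a difference of -3.75 ± 0.25 (limma adjusted p = 4.77e-06). The matrix protein Cilp was at 16.8, 20.3 and 21.3 CPM in K146Q pituitary against 67.0, 58.2 and 43, and at 97.6, 108 and 124 in K146Q thyroid against 14.7, 7.78 and 28.2, changes of -1.49 ± 0.35 and 2.84 ± 0.35. Its pituitary call was lost without mouse 1, 60, 62 or 83 (limma adjusted p = 0.0814 to 0.163). The other 3 named genes of this orientation, Gm10409, Gm3317 and Gm3488, are predicted members of a multicopy family on chromosome 14, where reads can be shared between copies, so their values are uncertain. In thyroid these 3 genes reached the floor of 0.5 CPM in K146Q libraries only, so their place here is partly set by the filter. Gm3317 and Gm3488 had identical reads in all 12 libraries, and each was listed at 0 in the 3 WT thyroid libraries against 3.34 to 4.64 CPM in K146Q, so a fitted fold there depends on the offset. The pituitary call of Gm10409 (limma adjusted p = 0.0469) was lost in 11 alternatives, and those of Gm3317 and Gm3488 were lost with each gland fitted alone and without mouse 1, 2, 60 or 62 (0.0549 to 0.112).

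**Figure D3:**
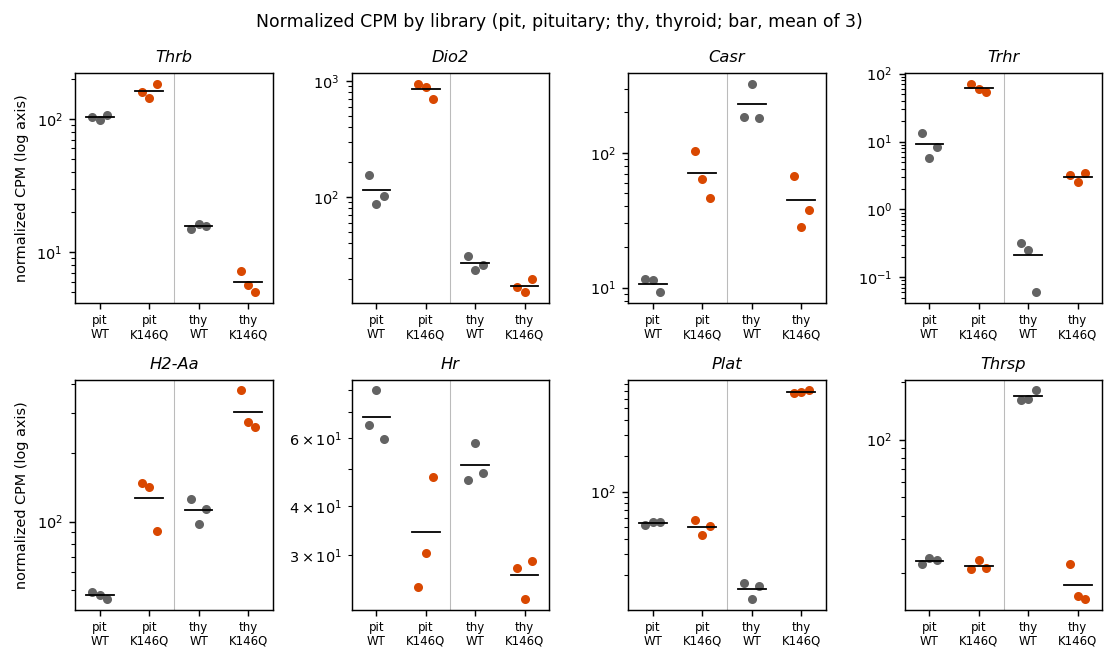
Normalized CPM of 8 genes on log axes, 1 point per library and a bar at the mean of 3 libraries of a group. Thrb, Dio2 and Casr are higher in K146Q pituitary and lower in K146Q thyroid, Trhr and H2-Aa are higher in K146Q in both glands, Hr is lower in both, and Plat and Thrsp differ between genotypes in thyroid.

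For genes that changed in pituitary alone, the named ones also had a 95% interval within ±0.5 in thyroid, as 87 of the 160 higher and 48 of the 67 lower genes had. Colgalt2, a collagen galactosyltransferase, was at 26.6, 26.7 and 25.4 CPM in K146Q pituitary against 7.96, 7.55 and 5.64, a rise of 1.84 ± 0.16, and at 25.5, 28.7 and 29.9 CPM in K146Q thyroid against 26.7, 31.1 and 19.6 in WT. The pituitary genotypes were separate and the thyroid genotypes overlapped, with a difference of 1.70 ± 0.23 (limma adjusted p = 4.12e-04). Sorcs1, a sorting receptor of the VPS10 family, rose from 33.5, 18.6 and 29.4 CPM to 101, 83.3 and 88.4 in pituitary (1.76 ± 0.19) and lay between 1.08 and 1.58 CPM in all thyroid libraries. Elfn1, a membrane protein of synapses, rose by 1.34 ± 0.12 in pituitary, from 4.98 to 6.63 CPM to 13.7 to 17.1, and stayed at 219 to 275 CPM in thyroid. 1500009L16Rik rose by 1.39 ± 0.19 and Wscd1 by 1.31 ± 0.19, both with a thyroid value of -0.07 ± 0.19. Of the genes lower in pituitary alone, Bmp7, a growth factor of the TGF-beta family, was at 8.15, 8.68 and 8.68 CPM in K146Q against 15.4, 20 and 13.2, and at 12.9 to 17.3 against 12.1 to 18.7 in thyroid. Its fall of -0.87 ± 0.18 was no longer called without mouse 60, 62 or 83 (limma adjusted p = 0.0598 to 0.0826). The adaptor Bcar3 and the kinases Stk32c and Camkk2 fell by -0.93 ± 0.14, -0.93 ± 0.13 and -0.86 ± 0.10, and the phospholipase receptor Pla2r1 by -0.87 ± 0.16, the last not called without mouse 62 (limma adjusted p = 0.0595). The call of the difference was lost for Bcar3 without mouse 60, 62 or 83 (0.0513 to 0.0735), for Pla2r1 without mouse 62 or 83 (0.065 and 0.0694) and for Bmp7 without mouse 1, 60, 62 or 83 (0.0551 to 0.105).

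For genes that changed in thyroid alone, 922 of the 1655 higher and 939 of the 1607 lower genes had a pituitary interval within ±0.5. Plat, tissue plasminogen activator, was at 664, 679 and 704 CPM in K146Q thyroid against 17, 12.5 and 16.2 in WT, while pituitary held 57.6, 43.2 and 51.6 CPM in K146Q and 52.9, 55.3 and 55.8 in WT. The thyroid rise of 5.45 ± 0.13 stood beside a pituitary value of -0.11 ± 0.13, a difference of -5.56 ± 0.18 (limma adjusted p = 6.55e-08). The transcription factor Arnt2 rose by 4.43 ± 0.16 in thyroid, the keratan sulfate sulfotransferase Chst1 by 4.06 ± 0.16, the transcription factor Sox17 by 3.44 ± 0.13 and Invs, which encodes a protein of cilia, by 3.33 ± 0.13. Sox17 showed the contrast at a low pituitary level: 1.60, 1.58 and 1.61 CPM in K146Q against 1.78, 1.72 and 1.42 in WT, with 124, 114 and 111 against 13.1, 9.43 and 8.66 in thyroid. In the other direction, Thrsp, a lipogenic protein named for its response to thyroid hormone, was at 22.3, 15.1 and 14.6 CPM in K146Q thyroid against 162, 164 and 181, and at 20.9 to 23.4 against 22.2 to 24.0 in pituitary. It fell by -3.27 ± 0.14 in thyroid. Fat markers were lower in the same K146Q thyroid libraries (sum 206 to 415 against 938 to 1239 CPM), and their part in the value of Thrsp was not tested. Abcc8, the sulfonylurea receptor, fell by -3.35 ± 0.15, the ubiquitin ligase Trim36 by -3.32 ± 0.19 and the RNA-binding protein Celf3 by -2.69 ± 0.13. Abcc8 and Celf3 were at 0.294 to 0.991 CPM in K146Q thyroid and 6.98 to 10.9 in WT thyroid, and the C-cell and parathyroid lists were lower in the same libraries, whose part was not tested.

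Of the remaining genes that the study names, Tshb changed by 4.03 ± 0.72 in pituitary (8183, 7166 and 5600 CPM against 539, 235 and 593) and was not called in thyroid, at 1.88, 3.58 and 5.69 CPM against 35.9, 4.56 and 3.31. The pituitary genotypes were separate and the thyroid ones overlapped. The pituitary call was lost without mouse 60 or 62 (limma adjusted p = 0.0577 and 0.0575), and DESeq2 called the thyroid change of Tshb (-1.97, adjusted p = 0.046). The SE of Tshb is that of a spread shared by both glands, and in thyroid WT mouse 1 stood apart. Cga, at 16205 to 20723 CPM in K146Q pituitary and 3157 to 4007 in WT, was not called in the fit with a spread shared by both glands (2.42 ± 0.67, limma adjusted p = 0.0603), was called with each gland fitted alone (6.33e-04), and had a called difference of 3.46 ± 0.95 (0.0193), which was not called without mouse 60 or 62 (0.0809 and 0.08). The difference was not called under quantile normalization either (2.56, 0.0525). In thyroid Cga was called without mouse 43 (-1.76, limma adjusted p = 0.0476), by edgeR (-1.79, 0.0475) and by DESeq2 (-1.81, 0.0421), and as both count models also called the pituitary change (0.0448 and 0.021), Cga met the rule for an opposite gene in them. The thyroid genotypes of Cga overlapped, however, at 7.83 to 16.1 CPM in K146Q and 8.06 to 95.9 in WT. The highest value was that of WT mouse 1, the library that stood apart. Prl, the prolactin mRNA, fell by -1.65 ± 0.32 in pituitary and by -0.88 ± 0.32 in thyroid, where it lay at 11.1 to 44.6 CPM with the highest value in WT mouse 1. The thyroid call was lost without mouse 1, 2, 60, 62 or 83 and without that library alone (-0.44, limma adjusted p = 0.107). The pituitary call was lost without mouse 60 or 62 (0.0862 and 0.0737). The difference of -0.77 ± 0.45 was not called, but was without mouse 1 (-1.39, 0.00327) or without its thyroid library (-1.22, 0.0082). Gh was called in neither gland (-0.97 ± 0.42 and -0.91 ± 0.42), although its pituitary genotypes did not overlap, and the 95% interval of its difference was -1.37 to 1.25. Its pituitary change was called without mouse 1 (-1.21, 0.0299) and its thyroid change without mouse 43 (-1.27, 0.0241). Tg fell by -1.71 ± 0.17 in thyroid with a pituitary value of -0.17 ± 0.17, where Tg was at 120 to 170 CPM, a share of at most 0.0475% of the highest thyroid level. Duox2 did not reach the level filter in pituitary and has no difference. In bulk tissue, fewer cells of a type and less RNA per cell cannot be told apart.

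The cells of the axis differed in their marker lists. Of 5 thyrotroph markers, 4 rose in pituitary (Tshb, Trhr, Gata2 and Dio2), with a list sum of 22667 to 30070 CPM in K146Q against 3549 to 4777 in WT. Markers of gonadotrophs, the other cells that make Cga, summed to 1443 to 1591 CPM in K146Q pituitary and 1194 to 1664 in WT, with overlap. The somatotroph and lactotroph list summed to 69718 to 84343 CPM in K146Q and 117187 to 244054 in WT, separate by genotype. Of its 3 members measured in both glands only Prl was called in pituitary. Gh, the larger part of the sum, was not called there. Of 6 follicular markers measured in both glands, 4 rose and 1 fell in thyroid, while the list sum, of which Tg is the larger part, was 90511 to 137945 CPM in K146Q thyroid and 299759 to 361450 in WT. Of 10 growth hormone and prolactin axis genes, 1 rose and 2 fell in pituitary and 2 rose and 5 fell in thyroid. In pituitary 0 of them were called without mouse 60 or 62 and 1 without mouse 2. Of 5 thyroid hormone synthesis genes, 2 rose and 2 fell in thyroid.

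Gene lists were described by counts beside the shares of all genes tested (5.94% in pituitary, 43.6% in thyroid, 28.2% for the difference) and beside medians of all genes near 0. The list that moved together most was that of leukocyte and antigen presentation genes. Of 19 measured, 12 rose in pituitary and none fell, and 16 rose in thyroid and 1 fell, with medians of 0.93 and 1.38 and 1 called difference. The 12 pituitary calls all rose in thyroid too: Ptprc, Csf1r, Cd74, H2-Aa, H2-Ab1, H2-Eb1, C1qa, C1qc, Tyrobp, Fcer1g, Aif1 and Mrc1. H2-Aa, an MHC class II chain that presents peptides to T cells, was at 148, 142 and 90.8 CPM in K146Q pituitary against 49.3, 47.7 and 45.7, and at 376, 273 and 261 in K146Q thyroid against 126, 97.6 and 114, with changes of 1.37 ± 0.19 and 1.42 ± 0.19. Cd74, the chain that guides MHC class II molecules to peptide loading, was at 453, 407 and 260 CPM against 143, 155 and 142, and at 1430, 1186 and 1132 against 471, 386 and 404. Ptprc, the pan-leukocyte phosphatase CD45, rose by 0.93 ± 0.17 and 0.96 ± 0.17. The genotypes of these 3 genes did not overlap in either gland. The pituitary count was 6 without mouse 60 and 6 without mouse 62.

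Granins and prohormone processing enzymes, which fill and mature the granules of endocrine cells, moved apart. Of 14 genes, 5 rose and 1 fell in pituitary, 2 rose and 10 fell in thyroid, and the difference was called for 10, 9 of them positive. The median was 0.43 in pituitary and -1.76 in thyroid. Besides Chgb, the granin Scg3 was at 885, 806 and 762 CPM in K146Q pituitary against 416, 444 and 442, and at 6.20, 4.35 and 4.92 in K146Q thyroid against 53.7, 52.3 and 45.9. The convertase Pcsk1 was at 611, 468 and 438 CPM against 211, 225 and 215, and at 2.68, 1.65 and 1.52 against 35, 33 and 20.7. Both were separate by genotype in each gland, with differences of 4.10 ± 0.17 and 4.81 ± 0.31. Vgf, the precursor of several neuropeptides, rose by 2.91 ± 0.39 in pituitary, from 10.5, 12 and 27.7 CPM to 197, 103 and 78.8, with a thyroid value of -0.04 ± 0.39. Pam, which amidates peptides, rose in both glands, and the convertase Pcsk6 fell in both. Scg5, which encodes a chaperone of Pcsk2, and Pam were the 2 that rose in thyroid, Scg5 by 1.94 ± 0.23. The 4 measured C-cell markers and the 3 measured parathyroid markers were all lower in K146Q thyroid, with medians of -2.08 and -2.40. Chga, also a granin, is in both marker lists, so they are not separate. The part of these markers in the granin values was not tested.

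Among genes of thyroid hormone action, 3 moved oppositely. Of 19 measured, 3 rose and 1 fell in pituitary, 1 rose and 8 fell in thyroid, and 7 had a called difference (36.8% of the list). The medians were -0.05 in pituitary and -0.27 in thyroid, and the share called in thyroid, 47.4%, was near that of all genes. The 3 that rose in pituitary, Dio2, Slc7a8 and Thrb, all fell in thyroid. Slc7a8, an amino acid transporter that also carries T3, was at 303, 243 and 226 CPM in K146Q pituitary against 97.3, 88.0 and 106, and at 11.7, 12.2 and 10.3 in K146Q thyroid against 19.0, 24.7 and 15.3. It changed by 1.39 ± 0.17 and -0.74 ± 0.17 with no overlap in either gland. In thyroid alone, Rxrg, a partner receptor of THRB, fell by -1.14 ± 0.22 and the transporter Slc16a10 by -1.24 ± 0.21, and Crym, a protein that binds T3 in the cytosol, rose by 1.69 ± 0.13. Without the 10 highest genes in the totals 14 genes of the list were called in thyroid, 13 of them lower, and without mouse 60 it was 5. Without mouse 1 or mouse 2 the pituitary count was 2.

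Of 13 known T3 response genes, 1 fell in pituitary, 2 rose and 5 fell in thyroid, and the difference was positive for 3 and negative for 3. The one called in both glands was Hr, a corepressor whose gene is induced by T3. It was at 24.9, 30.3 and 47.8 CPM in K146Q pituitary against 65.0, 79.6 and 59.8, and at 27.8, 23.1 and 28.9 in K146Q thyroid against 46.7, 58.2 and 48.8. Both glands were separate by genotype, and the changes of -1.02 ± 0.21 and -0.93 ± 0.21 differed by -0.09 with an interval from -0.74 to 0.56. The pituitary count of the list was 0 without mouse 1, 2, 60 or 62, and 2 without mouse 83. Klf9, a T3-induced transcription factor, fell by -0.83 ± 0.09 in thyroid with a pituitary value of -0.18 ± 0.09, and its difference of 0.65 ± 0.12 was called (limma adjusted p = 0.00281). Bcl3 and Kcnj10 rose in thyroid by 1.27 ± 0.16 and 1.27 ± 0.14, with pituitary values of -0.51 ± 0.16 and -0.31 ± 0.14.

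In further lists more genes were called in thyroid than in pituitary, as over all genes. The share called in thyroid was 82.4% of cell cycle genes, 90.5% of collagens and matrix genes, 71.4% of lysosome genes, 64% of antioxidant enzymes, 62.5% of cholesterol synthesis genes and 54.5% of endothelial genes. In pituitary the shares in the same order were 2.94%, 9.52%, 14.3%, 8%, 0% and 18.2%, and those of the difference 61.8%, 66.7%, 28.6%, 24%, 41.7% and 40.9%. Of 34 cell cycle genes, 28 rose in thyroid and 1 in pituitary, and the difference was called for 21, all larger in thyroid, with medians of 1.37 and 0.18. Without mouse 62 the difference was called for 13, and the pituitary count was 0 without mouse 60 and 4 without mouse 2. Cdk1, the kinase that drives entry into mitosis, was at 22.6, 22.1 and 22.2 CPM in K146Q thyroid against 7.33, 3.86 and 8.18, and at 1.56 to 1.91 against 0.667 to 1.77 in pituitary, where the genotypes overlapped. The list's pituitary call was E2f1, a transcription factor of S-phase genes, at 23.6, 16.2 and 16.9 CPM against 6.23, 6.01 and 5.70 (1.56 ± 0.30), and its thyroid value of 0.73 ± 0.30 was not called. Of 21 collagens and fibroblast matrix genes, 17 rose and 2 fell in thyroid, 2 rose in pituitary, and 14 had a called difference. The pituitary count was 0 without mouse 60 and 1 without any one of the others. Col1a1, a chain of the main fibrillar collagen, was at 585, 757 and 711 CPM in K146Q thyroid against 206, 150 and 243, and at 59.7 to 82.9 against 54.1 to 75.5 in pituitary. The matrix glycoprotein Fn1 changed by 3.21 ± 0.26 in thyroid and -0.54 ± 0.26 in pituitary, the latter not called. The growth factor Igf1 rose by 1.82 ± 0.18 and Igfbp2, a protein that binds it, by 3.5 ± 0.28 in thyroid, with pituitary values of 0.14 ± 0.18 and -0.04 ± 0.28, and Igfbp3 rose in both (0.51 ± 0.11 and 0.57 ± 0.11).

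Of 21 lysosome genes and cathepsins, 14 rose and 1 fell in thyroid and 3 rose in pituitary. Ctsb and Ctsl, proteases that cleave thyroglobulin, rose by 2.18 ± 0.16 and 2.02 ± 0.18 in thyroid with pituitary values of 0.05 ± 0.16 and -0.18 ± 0.18, whereas Ctss, a protease of antigen-presenting cells, rose in both by 1.17 ± 0.24 and 1.54 ± 0.24. The pituitary count was 0 without mouse 60 and 1 without mouse 62. Of 24 cholesterol synthesis genes, 12 rose and 3 fell in thyroid, and 10 had a called difference. In pituitary 0 were called by limma, edgeR or DESeq2, with 1 at an unadjusted p under 0.05 in limma. The difference count was 3 without mouse 2 or 62, 5 without mouse 43 and 6 without mouse 1. Of 22 endothelial genes, 12 rose in thyroid, and 3 rose and 1 fell in pituitary, where 2 were called without mouse 60. Angpt1, a ligand of the endothelial receptor Tek, fell in pituitary alone by -1.60 ± 0.28, and Angpt2, its counterpart, rose in thyroid alone by 2.28 ± 0.19. Of 25 antioxidant enzymes, 8 rose and 8 fell in thyroid and 2 rose in pituitary. These 2, the glutathione peroxidase Gpx3 and the peroxiredoxin Prdx6, fell in thyroid: Gpx3 changed by 0.64 ± 0.15 and -1.30 ± 0.15, and Prdx6 by 0.43 ± 0.10 and -0.55 ± 0.10. The pituitary count was 0 without mouse 1, 2, 60 or 62 and 1 without mouse 83. The thyroid count was 10 without mouse 62, and the difference count of 6 was 3 without mouse 62 and 10 without mouse 2.

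Of 38 genes of cAMP signalling, through which thyrotropin acts on follicular cells, 10 rose and 16 fell in thyroid, and 4 rose and 1 fell in pituitary. Gnas, the stimulatory G protein subunit that couples receptors to adenylyl cyclase, was at 10945, 9916 and 8857 CPM in K146Q pituitary against 6892, 7546 and 6547, and at 1734, 1431 and 1427 in K146Q thyroid against 2403, 3017 and 2407. Adcy7, an adenylyl cyclase, had the reverse pattern, at 11.9, 11.6 and 11.1 CPM against 19.1, 20.8 and 17.4, and at 23.9, 25.7 and 28.4 against 16.6, 12.1 and 14.3. Neither overlapped between genotypes in either gland, with differences of 1.27 ± 0.18 and -1.54 ± 0.16. The phosphodiesterase Pde4b and the kinase subunit Prkacb rose in both glands. The cyclase Adcy8 rose by 6.08 ± 0.20 in thyroid and was at 0.310 to 0.972 CPM in pituitary. The pituitary count of 5 was 1 without mouse 60 and 3 without any one of the others.

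Immediate-early genes and targets of the cAMP-responsive factor CREB had medians of opposite sign, -0.47 in pituitary and 0.65 in thyroid, but wide spreads between mice. Of 22, 1 fell in pituitary, 5 rose in thyroid and 4 had a called difference, all more negative in pituitary. With the mouse number as a block the difference was called for 10, all negative, in edgeR and in DESeq2 for 8, without mouse 62 for 0 and without mouse 2 for 10. The pituitary count was 5 without mouse 2 and 0 without mouse 43, 60 or 62, and the thyroid count was 8 without mouse 1 and 3 without mouse 60, 62 or 83. Nr4a2, an orphan nuclear receptor, was at 92.2, 64.4 and 118 CPM in K146Q pituitary against 184, 85.2 and 247, where the genotypes overlapped, and at 81.0, 83.2 and 106 in K146Q thyroid against 47.4, 31.4 and 41.3, where they did not. Its difference was -1.99 ± 0.49 (limma adjusted p = 0.0117). Fosl2, a partner of Jun proteins in the AP-1 factor, had a difference of -1.93 ± 0.49 (0.0142).

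Lists of abundant housekeeping genes shifted by small amounts. Of 74 respiratory chain subunits, 6 rose in pituitary, 5 rose and 31 fell in thyroid, and 39 had a called difference, 37 of them positive, with medians of 0.20 and -0.25. The difference count was 19 and the pituitary count 0 without mouse 62, the latter 1 without mouse 1 or 2 and 2 without mouse 43 or 60, and the thyroid count was 23 without mouse 43 or 62. Of 81 cytosolic ribosomal proteins, 65 rose in thyroid and 5 had a called difference. In pituitary 0 were called by limma, 1 by edgeR and 4 by DESeq2, with 6 at an unadjusted p under 0.05 in limma. The thyroid count of ribosomal proteins was 21 under quantile normalization, 44 without the 10 highest genes in the totals, and 40, 34 and 39 without mouse 2, 60 and 62. Their difference count was 2 with the mouse number as a block, 0 without mouse 2 or 60 and 1 without mouse 43 or 62. Both lists were chosen by symbol after these data had been seen. Counts of ER chaperones and genes of the unfolded protein response rested on single mice: of 27, 2 rose in pituitary, 5 fell in thyroid and 3 had a called difference. The difference count ranged from 0 without mouse 1, 60 or 62, or without the WT thyroid library of mouse 1, to 10 without mouse 2. In pituitary the count was 0 without mouse 1, 60, 62 or 83, 1 without mouse 43, 5 without mouse 2 and 6 with each gland fitted alone. The thyroid count was 8, all lower, without mouse 2, 2 without mouse 1 and 1 without mouse 60 or 62.

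**Figure D4:**
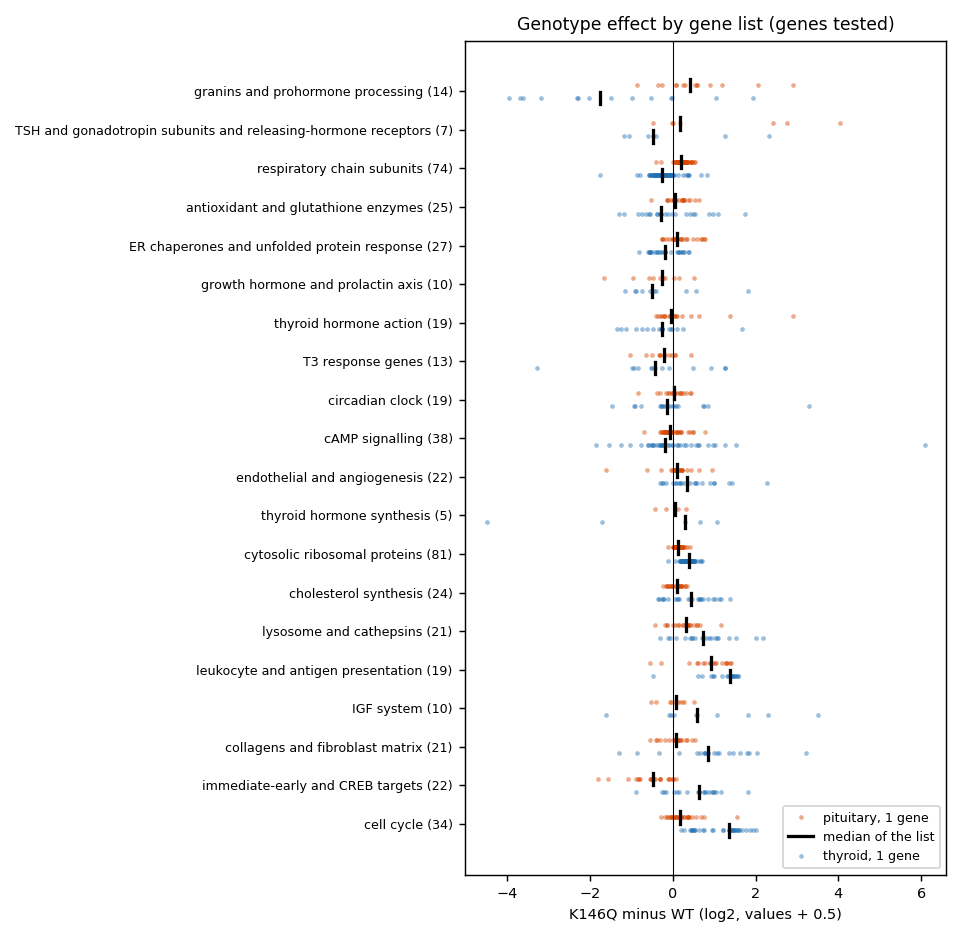
Change from WT to K146Q on the log2 scale for each gene of 20 lists, pituitary in orange above and thyroid in blue below, with a black bar at each median and the number of genes tested in brackets. The median of leukocyte genes lies to the right of 0 in both glands, and that of granins to the right in pituitary and to the left in thyroid, with single genes on the other side. Cell cycle genes lie to the right in thyroid with a pituitary median of 0.18.

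Circadian clock genes were compared between the 2 glands of each mouse within genotype. Of 19, 0 were called in pituitary by limma or edgeR and 1 by DESeq2, with 1 at an unadjusted p under 0.05 in limma, while 2 rose and 3 fell in thyroid. Without mouse 83 the pituitary count was 3, with 2 higher and 1 lower. Dbp, a clock output gene with a strong daily rhythm, was at 187, 207 and 60.1 CPM in the pituitaries of K146Q mice 60, 62 and 83 and at 154, 145 and 27.6 in their thyroids. Arntl, which peaks when Dbp is low, was at 19.5, 15.6 and 32.4 CPM in the same pituitaries and 8.13, 6.70 and 20.8 in the thyroids. Mouse 83 was thus lowest for Dbp and highest for Arntl among K146Q mice in both glands. Over 19 genes and 6 mice, the deviation from the genotype mean had the same sign in both glands in 86 of 114 cases, and its median size was 0.315 in pituitary and 0.398 in thyroid for mouse 83, against 0.134 to 0.298 and 0.170 to 0.274 for the other mice. The 19 genes come from the same 6 mice and deviations within a genotype sum to 0, so the 114 cases are not independent. The same-sign share over all genes was not taken. Over all genes mouse 83 also had the highest correlation between its 2 glands (0.2253), so this sharing is not shown to be particular to clock genes. The hour of dissection was not used here.

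**Figure D5:**
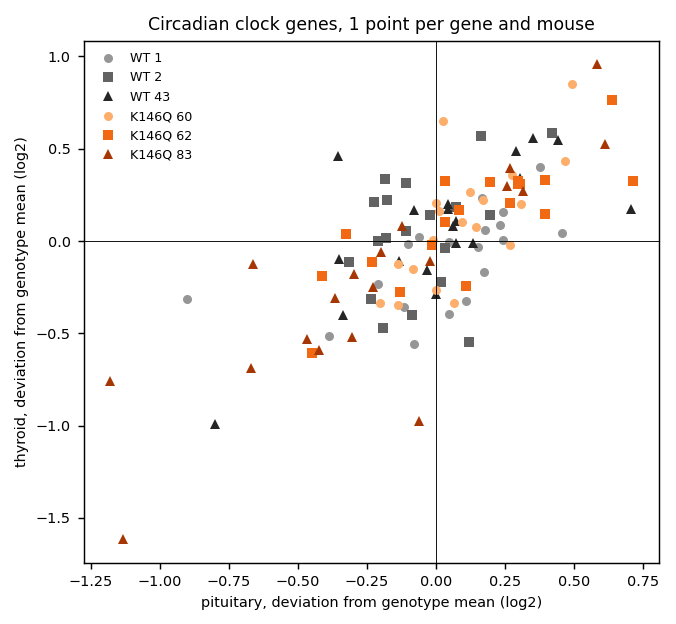
Deviation of each of 19 clock genes from its genotype mean on the log2 scale in pituitary (x axis) and thyroid (y axis), 1 point per gene and mouse, coloured and shaped by mouse. In 86 of 114 points both deviations have the same sign, and the median distance from 0 is largest for K146Q mouse 83 in both glands.

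Genes near Thrb on chromosome 14 were counted apart, since a knock-in can leave sequence of another strain around its locus. The study's methods give the same background for the mutants and their backcross, and the same substrain for WT mice. Whether such sequence is present was not tested. Of 46 tested genes within 5 Mb of Thrb, 2 were called in pituitary and 18 in thyroid, and 13 for the difference, near the shares of all genes. Within 15 Mb, 15 of 142 were called in pituitary, 68 in thyroid and 47 for the difference, which were 10.6%, 47.9% and 33.1%, the first above the 5.94% of all genes. On all of chromosome 14 the pituitary share was 8.58%. The 15 pituitary calls include the 5 multicopy genes named next, between which reads can be shared, so the share of 10.6% is not one of separate measurements. The 6 opposite genes in that window were Galnt15, Gm10409, Gm3002, Gm3020, Gm3317 and Gm3488, of which the last 5 belong to the multicopy family and the last 2 have identical reads, so that the 6 are not separate measurements.

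Hypothalamus of the same mice served as a tissue that did not enter the choice of genes. None of 13872 genes was called there by limma (0%), with 629 at an unadjusted p under 0.05, 9 called by DESeq2 and 0 by edgeR. The median hypothalamic change was 0.01 on the log2 scale for the 209 measured genes that rose in both glands, of which 118 were above 0, and 0.01 for the 81 that fell in both, of which 45 were above 0. Opposite genes had medians of 0.01 and -0.02 in the 2 orientations.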

How the data were processed

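Total RNA of snap-frozen tissue had been sequenced on an Illumina HiSeq. The submitters' processing notes name bcl2fastq 2.17, Bowtie2 2.1.0, RSEM 1.2.15 and mm10, and the counter settings and strand are not given in the sources used here. The authors deposited 1 table per tissue with a normalized CPM signal per library, that is, reads relative to a library size scaled by a factor per library. All 432972 values were whole multiples of 1 read within 0.01 read, so reads were recovered for count models. Columns of the authors' own tests (fold change, p and FDR) were not used, and 0 columns of per-sample values were left out. The tables were normalized separately, so changes were taken within a gland. Because an earlier analysis of these data was known when genes, lists and tests were chosen, none of these is an independent prediction.

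Main fits used limma 3.58.1 (R 4.3.3) on log2(CPM + 0.5) with 4 group means over 12 libraries, no mean-variance trend and Benjamini-Hochberg adjustment over 14333 genes at 0.05. Fold changes on this scale understate those of low genes. The alternatives were edgeR 4.0.16, DESeq2 1.42.0, other offsets, filters and scalings, each gland alone, a mouse block and leaving out libraries. Scripts were tested on simulated data. The design text gives 3 mice per genotype, so equal numbers were read as 1 mouse: same-numbered libraries of the 2 glands correlated at 0.0526 to 0.2253 in their deviations from group means (3 of 6 over 0.1), other pairs at -0.1534 to 0.0642. The exact permutation test over 6 mice has 20 arrangements and cannot go below p = 0.1, which every gene named for its difference reached. For opposite genes this was fixed by their choice, which asked for separate genotypes in both glands, so it adds no support. For genes of 1 gland alone the choice, which asked for separate genotypes in that gland, favoured it. Named genes were, per class and direction, the 5 with the largest change (the smaller of both glands where 2 count) among genes with separate genotypes where called, a group mean of at least 1 CPM in each gland and, for 1 gland alone, an interval within ±0.5 in the other, plus genes that the study names, and 1 gene that met this rule is not reported here. List members given as examples were chosen after their values were seen. Counting error aside, n = 3 limits precision. Coordinates are GRCm38 (mm10).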

Additional observations from a re-analysis of the deposited data

Results flagged for a closer look

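The genotype effect differed between pituitary and thyroid, by the contrast for the difference itself, for 4036 genes, and 185 genes were called in opposite directions. Among the named genes, the difference (pituitary minus thyroid change, log2) was called and positive for Tshb (5.21), Casr (5.0), Chgb (4.09), Cited1 (3.92), Cacng5 (3.72), Dio2 (3.52), Abcc8 (3.49), Cga (3.46), Myo3b (3.45), Trim36 (3.38), Thrsp (3.19), Greb1 (2.78), Celf3 (2.50), Wfdc17 (2.37), Pnoc (2.16), Thrb (1.98), Sorcs1 (1.71), Colgalt2 (1.70), Tg (1.54), Elfn1 (1.51), 1500009L16Rik (1.46) and Wscd1 (1.38). Thyroid levels of Tshb, Chgb and Cga were at most 0.438%, 0.594% and 0.463% of the highest pituitary level, each highest in WT mouse 1. The pituitary level of Tg was at most 0.0475% of the highest thyroid level.

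It was called and negative for Plat (-5.56), Gm10409 (-4.96), Arnt2 (-4.56), Gm3317 and Gm3488 (both -4.42, with identical reads, fitted against WT thyroid libraries listed at 0 and so set by the offset), Cilp (-4.33), Chst1 (-4.12), Hunk (-3.75), Sox17 (-3.47), Invs (-3.26), Stk32c (-0.98), Pla2r1 (-0.88), Bmp7 (-0.87), Bcar3 (-0.75) and Camkk2 (-0.63). With the mouse number as a block, every one of these differences was still called.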

How the results depend on the processing

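With the mouse number as a replicate block the difference was called for 4006 genes, 3590 of them among the 4036 called without it, and the block changed no call of a named gene and moved no other count named here by over 1.5 times than those of the immediate-early and ribosomal lists. Counts that moved by over 1.5 times were pituitary alone without a filter (405), and under DESeq2 the pituitary count (1456), together (533), opposite (327) and hypothalamus (9). Leaving out 1 mouse, or the thyroid library of WT mouse 1, gave 2373 to 3744 for the difference, 280 to 801 in pituitary, 4525 to 5813 in thyroid, 87 to 299 together, 70 to 167 opposite, 97 to 201 in pituitary alone, 2012 to 3038 in thyroid alone and 0 to 1 in hypothalamus (1 without mouse 43). Each such fit has 2 mice in 1 group, and the cause of the changes under DESeq2 and the filter was not tested.

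Of 2169 values of 47 named genes under alternatives, 2067 kept direction and call, 73 lost the call, 17 gained it and 12 changed sign. The sign changes were the difference of Trhr with an offset of 0.1 (-0.63), edgeR (-1.10) and DESeq2 (-1.13), the difference of Gh under quantile normalization (0.89), edgeR (0.084), DESeq2 (0.090) and without 1 mouse, where it ranged from -0.87 to 0.62 and was above 0 without mouse 2, 43 or 83, and, under quantile normalization, Gh in pituitary (0), Tg in thyroid (0) and the difference of Tg (-0.20), since the highest gene of every library is then given the same value. The difference of Pnoc was not called by edgeR (1.56, adjusted p = 0.0709). Leaving out genes whose highest level in 1 gland was under 1% of that in the other, chosen after the data were seen, left 325 genes together and 182 opposite. Depth limits low genes: a level under 0.190 CPM is fewer than 3 reads in some library.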

Other observations

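Genes measured in 1 gland only have no difference between glands, and their change was taken from a fit of that gland alone. Of the 1233 genes kept in pituitary only, 182 were called (14.8%, against 7% of all 15566 genes kept in pituitary in that fit), 111 higher and 71 lower. A low gene can pass the level filter through the genotype where it is high alone, so that this count is partly set by the filter and is no measure of the effect on these genes. Ces1a, a carboxylesterase, was at 46.4, 20.3 and 16.9 CPM in K146Q pituitary against 0.267, 0.172 and 0.0570 in WT, and Th, tyrosine hydroxylase, which makes the dopamine precursor, at 112, 42.4 and 27.6 against 3.43, 3.83 and 1.54. The examples of genes kept in 1 gland only were picked from genes whose genotypes did not overlap, so their separation is no result. Ces1a and Th were highest in mouse 60. Hapln1, which links hyaluronan to proteoglycans, was at 1.03, 1.07 and 2.81 CPM against 24.1, 23.5 and 26.0.

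Of the 844 genes kept in thyroid only, 412 were called (48.8%), 268 higher and 144 lower, with the same limit from the filter. The share over all 15177 genes kept in thyroid was 35.3% in that fit. Sprr2g, a cornified envelope protein, was at 77.2, 60.9 and 104 CPM in K146Q thyroid against 0.189, 0.0633 and 0, and Fgg, a fibrinogen chain, at 67.6, 44.1 and 36.6 against 0.126, 0.0633 and 0.241. Snx31, a sorting nexin, was at 0.198, 0.353 and 0.117 CPM against 13.3, 26.3 and 19.7.

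Outside the rule for named genes, and chosen after their values were seen, the pituitary change of Prss28, a tryptase-like serine protease, was the highest of those tested (7.02 ± 0.70), at 1774, 1735 and 1633 CPM in K146Q against 15.8, 4.40 and 28.1 in WT, with 0.294 to 0.821 against 0.662 to 7.70 in thyroid. In thyroid it was that of Dcpp3, a protein of demilune cells and parotid gland (7.53 ± 0.90), at 2544, 3513 and 2221 CPM against 38.3, 1.52 and 39.9, with 0.801 to 2.05 in all pituitary libraries. Edil3, an integrin ligand, was an opposite gene with a difference of -5.29 ± 0.27: 37.0, 46.0 and 60.7 CPM in K146Q pituitary against 120, 79.2 and 103, and 39.3, 30.3 and 34.8 in K146Q thyroid against 1.58, 1.27 and 1.32.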
